A study of Homo sapiens with 4 samples.

Results

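The m6A peaks of 8 large chromatin regulator genes, KMT2A, KMT2B, KMT2C, KMT2D, ARID1A, ARID1B, EP300 and CREBBP, were described in control and FTO knockdown RWPE1 cells. RWPE1 is a nontumorous prostate epithelial cell line immortalized with human papillomavirus, and FTO is an enzyme that removes m6A from RNA. Per the methods, the knockdown cells (labelled sh, here shFTO) carried a lentiviral shRNA against FTO and the control cells (labelled Ctrl, here shCtrl) the matching control vector. Each condition gave 1 MeRIP library, in which RNA fragments are pulled down with an m6A antibody (IP), and 1 input library, 4 libraries in all. No replicate was therefore available, no test between the conditions was made, and every difference below is one between 2 peak lists. A peak was assigned to a gene if it lay on the strand of the gene and overlapped its locus in the hg19 build, which gave 27 of the 10087 shCtrl peaks and 31 of the 10323 shFTO peaks, or 58 peaks of 20410 in all. All 8 genes held at least 1 peak in each list, and no peak in the 8 loci lay on the opposite strand.

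These genes encode proteins that write chromatin marks or belong to a complex that moves nucleosomes. KMT2A, KMT2B, KMT2C and KMT2D are methyltransferases that act on lysine 4 of histone H3, KMT2A and KMT2B mostly at promoters and KMT2C and KMT2D mostly at enhancers. ARID1A and ARID1B are alternative DNA-binding subunits of the SWI/SNF (BAF) complex, which slides and evicts nucleosomes. EP300 and CREBBP are paired acetyltransferases that serve as coactivators for many transcription factors. In mRNA, m6A is known to be frequent in long internal exons and around stop codons, and all 8 genes encode very large proteins. Exon positions in hg19 were not used here, so each peak is placed by its distance along the locus and not by exon.

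Each list gives a position, a width and a score for every peak. The score, taken here to be minus log10 of the peak caller's P value times 10, was used only to rank a peak within its own list. Over all peaks, the median width was 212 bp for shCtrl and 242 bp for shFTO. Peaks of at least 1000 bp, a limit chosen after the values were seen, made up 9.69% of shCtrl and 15.3% of shFTO peaks. A score of exactly 3100, which many peaks share and which therefore gives them no order, was carried by 4.02% of the shCtrl peaks and 5.92% of the shFTO peaks. Read counts are not part of the lists, which leaves the depth behind a peak unknown. The knockdown itself could not be checked from peak lists.

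**Figure D1:**
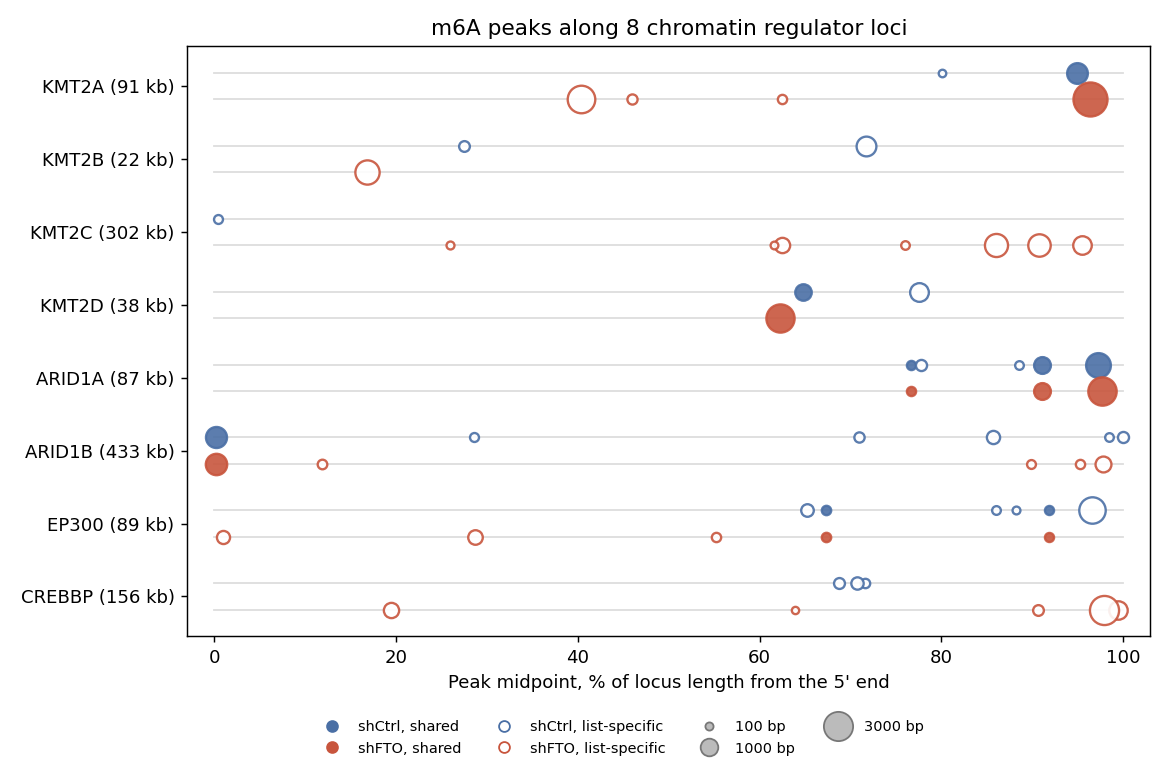
Position of every listed m6A peak along the 8 loci, as a percent of the locus length from the 5′ end (horizontal axis), with shCtrl peaks on the upper and shFTO peaks on the lower line of each gene. The area of a circle grows with peak width, filled circles are peaks that overlap a peak of the other list and open circles are list-specific; KMT2C has 1 shCtrl and 7 shFTO circles, and ARID1A has 3 filled circles on each line.

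The 8 genes held peaks of 295 bp (shCtrl) and 635 bp (shFTO) at the median, above the medians of the whole lists, with ranges of 65 to 2427 bp and 52 to 4122 bp. Peaks of at least 1000 bp numbered 6 of 27 in shCtrl cells (22.2%, 95% Wilson interval 10.6% to 40.8%) and 11 of 31 in shFTO cells (35.5%, 21.1% to 53.1%). These intervals cover counting error only, and peaks of 1 transcript are not independent. The wide peaks lay in 6 of the 8 genes in shCtrl cells and in 7 of the 8 in shFTO cells. Of the summed peak length of the 8 genes they made up 61.9% (shCtrl) and 79.2% (shFTO). A score of 3100 was carried by 1 of the 27 shCtrl peaks and by 5 of the 31 shFTO peaks.

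**Figure D2:**
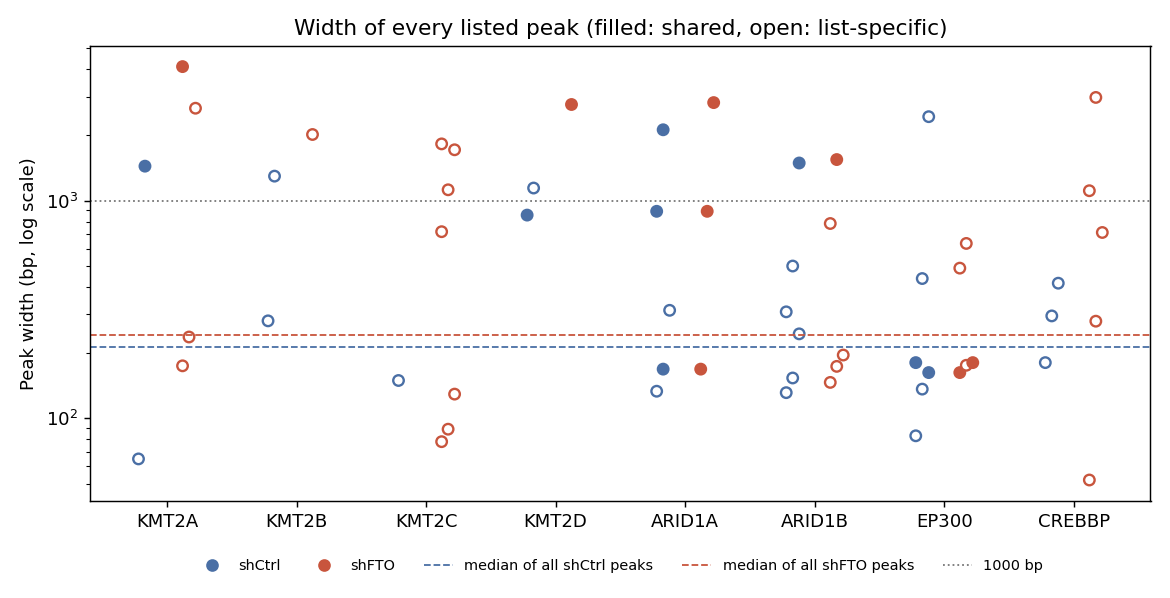
Width of every listed peak of the 8 genes in bp (log axis), shCtrl in blue and shFTO in red, filled where the peak overlaps one of the other list. Dashed lines mark the medians of all shCtrl peaks (212 bp) and all shFTO peaks (242 bp), and the dotted line marks 1000 bp; 6 shCtrl and 11 shFTO peaks lie on or above it.

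Most peaks of these genes were present in 1 list alone, as were most peaks of either list. Peaks with a partner in the opposite condition, at an overlap of 1 bp or more, were called shared, and the rest list-specific. In shCtrl cells 19 of the 27 peaks were list-specific (70.4%, 95% Wilson interval 51.5% to 84.1%), against 79.8% of all shCtrl peaks. In shFTO cells 23 of the 31 were list-specific (74.2%, 56.8% to 86.3%), against 80.4% of all shFTO peaks. Both shares lay near those of the whole lists. The 8 shared pairs fell in 5 genes, 3 in ARID1A, 2 in EP300 and 1 each in KMT2A, KMT2D and ARID1B. KMT2B, KMT2C and CREBBP had none.

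All 8 shared pairs had at least 1 edge at the same base in both lists, as did 88.6% of all 2037 overlapping pairs. In 4 of the 8 pairs both edges were identical, and in the other 4 the shFTO peak was the wider one. Over all overlapping pairs both edges were identical in 54.7%, the shFTO peak was wider in 33.9% and the shCtrl peak in 11.4%, so the counts of these 8 pairs lay near those of the lists. The median width of shared peaks was 874.5 bp in shCtrl and 1217 bp in shFTO cells, and that of list-specific peaks 280 bp and 489 bp.

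Summed over the 8 genes, listed peaks covered 15985 bp (shCtrl) and 31148 bp (shFTO), a ratio of 1.95. Over the whole lists the ratio was 1.34. The number of peaks differed less, by a ratio of 1.15 for the 8 genes and 1.02 for the lists. The mean width of the 8 genes' peaks was 592 bp for shCtrl and 1005 bp for shFTO, a ratio of 1.70. Over the whole lists the mean width was 409 bp and 535 bp, a ratio of 1.31. The summed length was greater in shFTO cells for 7 genes and greater in shCtrl cells for EP300. Of the 7, ARID1B (2823 bp and 2840 bp) and ARID1A (ratio 1.07) differed little. The share of all genes with a greater length in shFTO cells was not counted, so the 7 have no background beside them. The difference was uneven: KMT2A, KMT2C and CREBBP together held 15434 bp more in shFTO cells and all 8 genes together 15163 bp more. Without KMT2C the ratio was 1.61, and over the peaks under 1000 bp alone it was 1.06 (6085 bp and 6468 bp), so the wide peaks carried most of the difference. By number, shFTO cells had more peaks in 3 genes (KMT2A, KMT2C and CREBBP) and shCtrl cells in 5.

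**Figure D3:**
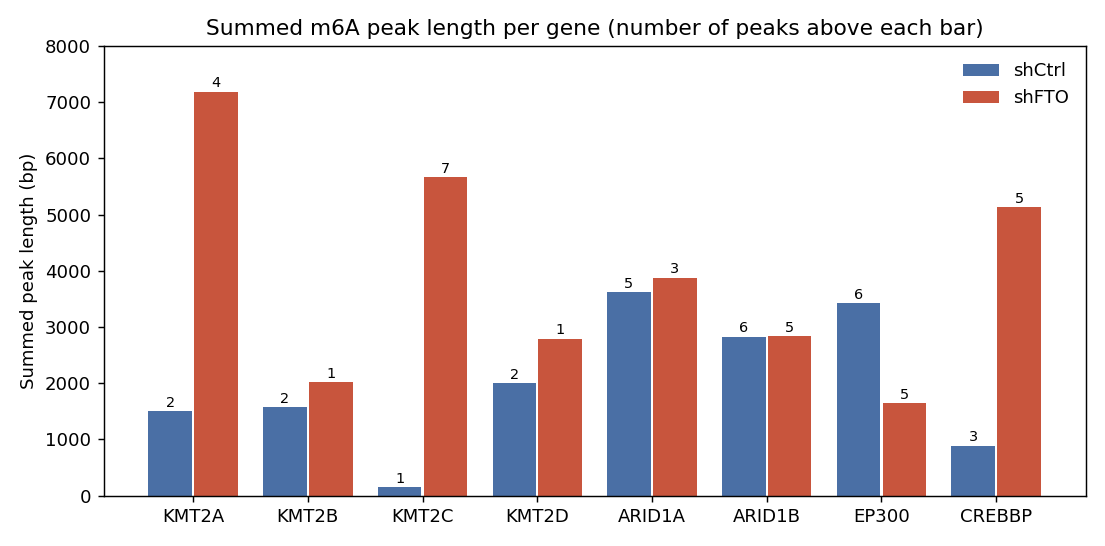
Summed m6A peak length per gene in bp, shCtrl in blue and shFTO in red, with the number of peaks above each bar and 1 peak list per condition. The bars of KMT2A (1503 and 7186 bp), KMT2C (150 and 5665 bp) and CREBBP (892 and 5128 bp) differ most toward shFTO cells, and EP300 (3426 and 1641 bp) differs toward shCtrl cells.

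The 4 methyltransferase genes held 7 peaks with 5225 bp in shCtrl cells and 13 peaks with 17662 bp in shFTO cells, a ratio of 3.38. This ratio does not describe each gene. Most of the added length lay in KMT2A (5683 bp more in shFTO cells) and KMT2C (5515 bp more). KMT2B held 447 bp more and KMT2D 792 bp more. KMT2A and KMT2B form one related pair, and KMT2C and KMT2D the other. Of the 13 shFTO peaks 7 were at least 1000 bp wide, and of the 7 shCtrl peaks 3 were.

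KMT2A, the founding mammalian member, is known for the fusions it forms in leukemia. Its locus (chr11:118307001-118398000, plus strand) held 2 shCtrl and 4 shFTO peaks. Near its 3′ end both lists had a peak that started at the same base and differed in its end, at chr11:118392612-118394049 in shCtrl cells (1438 bp, score 271.42) and chr11:118392612-118396733 in shFTO cells (4122 bp, score 475.15). The shFTO peak was the widest of all 58, and it reached 2684 bp farther toward the 3′ end. It scored higher than 68.3% of its list and the shCtrl peak higher than 63.0% of its own, so both stood at a similar place in their lists. A second wide shFTO peak lay at 40.3% of the locus, at chr11:118342377-118345030 (2654 bp), with a score of 3100 and no shCtrl partner. The other shFTO peaks were of 236 bp (score 364.57) and 174 bp (score 55.31). In shCtrl cells the only other peak was of 65 bp at chr11:118379851-118379915, with a score of 354.46.

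KMT2B, the closest relative of KMT2A, has the shortest locus of the 8 (chr19:36208001-36230000, plus strand, 22 kb). It held 1 shFTO peak at chr19:36210686-36212706, 2021 bp wide with a score of 3100, centred 3.70 kb from the 5′ end. The shCtrl list had its nearest KMT2B peak 1190 bp away, at chr19:36213897-36214176 (280 bp, score 661.45). A wider shCtrl peak lay at chr19:36223116-36224409 (1294 bp, score 343.45), at 71.6% of the locus. None of the 3 peaks overlapped another. KMT2A and KMT2B thus each had a wide shFTO peak with a score of 3100 before the midpoint of the locus, at 40.3% and 16.8%. No shCtrl peak overlapped either of them, as held for 80.4% of all shFTO peaks.

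KMT2C had the largest ratio of summed length of the 8 genes, 37.8. Its locus on the minus strand (chr7:151832001-152134000, 302 kb) held 1 shCtrl peak of 150 bp, at chr7:152132711-152132860, 1.22 kb from the 5′ end, with a score of 62.98 that exceeded 8.43% of the list. In shFTO cells it held 7 peaks with 5665 bp, none of which overlapped the shCtrl peak. The 3 widest lay in the 3′ part, at chr7:151873276-151875095 (1820 bp, score 443.43), chr7:151859202-151860911 (1710 bp, score 559.39) and chr7:151845118-151846237 (1120 bp, score 333.25). They were centred at 86.0%, 90.7% and 95.5% of the locus, and their scores exceeded 66.9%, 71.7% and 60.0% of the shFTO list. The other 4 shFTO peaks were 78 to 719 bp wide with scores of 55.89 to 324.79. Parts of KMT2C have near-identical copies elsewhere in the genome, and how reads were shared among such copies is not given in the sources used here, so the assignment of single KMT2C peaks is uncertain.

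KMT2D, the enhancer methyltransferase that is often mutated in cancer, had a shared peak instead, which reached 1000 bp in shFTO cells alone. At chr12:49424958-49427747 the shFTO list had a peak of 2790 bp with a score of 3100, and at chr12:49424958-49425814 the shCtrl list had one of 857 bp with a score of 2728.05, above 95.2% of its list. The shared edge was the 3′ one on this minus-strand gene, and the shFTO peak extended 1933 bp farther toward the 5′ end. A second shCtrl peak lay at chr12:49419965-49421105 (1141 bp, score 1717) without a shFTO partner. KMT2C and KMT2D, close relatives, therefore differed in their lists: the peaks of KMT2D stood high in both, while KMT2C had in shCtrl cells only 1 narrow peak of low score.

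Among the 8 genes, the SWI/SNF subunits ARID1A and ARID1B were the most alike between the lists in length. Together they held 6442 bp in 11 shCtrl peaks and 6717 bp in 8 shFTO peaks, a ratio of 1.04. In ARID1A, a tumor suppressor in several epithelial cancers, all 3 shFTO peaks were shared. At chr1:27088643-27088810 (168 bp) and at chr1:27100820-27101711 (892 bp) both edges were identical in the lists. The wider of these stood high in both, above 95.3% of the shCtrl scores and 91.6% of the shFTO scores. Near the 3′ end, at chr1:27105514-27107626 in shCtrl cells (2113 bp) and chr1:27105514-27108330 in shFTO cells (2817 bp), the peaks shared their start and both had a score of 3100. The shFTO peak ran 704 bp farther toward the 3′ end. The remaining ARID1A peaks were 2 narrow shCtrl peaks of 313 and 133 bp, with scores of 83.08 and 188.22. ARID1A was the only gene of the 8 with a peak scored 3100 in both lists.

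ARID1B, the alternative subunit, spans 433 kb (chr6:157099001-157532000, plus strand), and its summed length was nearly the same in both lists (2823 bp and 2840 bp). Of its peaks, 5 of 6 in shCtrl and 4 of 5 in shFTO cells were list-specific. These shares lay near those of all shCtrl (79.8%) and all shFTO peaks (80.4%). The shared pair lay at the very 5′ end, at chr6:157099119-157100605 in shCtrl cells (1487 bp, score 737.72) and chr6:157099064-157100605 in shFTO cells (1542 bp, score 942.05). It was the only shared pair of the 8 genes in the first 10% of a locus. Toward the 3′ end the shFTO list had a peak at chr6:157521839-157522622 (784 bp, score 2502.99), and the nearest shCtrl peak, of 131 bp with a score of 52.36, lay 2377 bp away. The other shCtrl peaks were 153 to 500 bp wide and the other shFTO peaks 146 to 195 bp.

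The acetyltransferase genes EP300 and CREBBP, a pair of close relatives, were unlike each other at the 3′ end. Together they held 9 shCtrl peaks with 4318 bp and 10 shFTO peaks with 6769 bp, a ratio of 1.57. EP300 (chr22:41488001-41577000, plus strand) had its widest peak in shCtrl cells alone, at chr22:41572777-41575203, 2427 bp wide, with a score of 1883.89 that exceeded 92.6% of the list. It was centred 3.01 kb from the 3′ end, and the nearest shFTO peak of the gene was 2988 bp away. CREBBP (chr16:3775001-3931000, minus strand) had its widest peak in shFTO cells alone, at chr16:3776901-3779875, 2975 bp wide, with a score of 3100 and centred 3.39 kb from the 3′ end. The nearest shCtrl peak of CREBBP was 39299 bp away. The 2 genes thus carried a wide 3′ peak each, at a like distance from the end, in opposite lists.

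The remaining peaks of this pair were mostly narrow. In EP300 2 pairs were shared with both edges identical, at chr22:41547837-41548016 (180 bp) and chr22:41569627-41569788 (162 bp). The 162 bp peak exceeded 7.11% of the shCtrl scores and 60.7% of the shFTO scores, so it stood low in one list and above the middle of the other. The other list-specific EP300 peaks were 83 to 438 bp wide in shCtrl cells and 175 to 635 bp in shFTO cells. The 3 shFTO ones lay 5′ of every shCtrl peak of the gene, at 0.963%, 28.7% and 55.2% of the locus. CREBBP had 3 shCtrl peaks within a short stretch at 68.7% to 71.6% of the locus (180 to 417 bp), of which 2 had scores of 1088.12 and 1257.06. None of the 5 shFTO peaks of CREBBP lay in that stretch. A further wide shFTO peak of CREBBP, at chr16:3775323-3776431 (1109 bp), had a score of 71.10, above 13.7% of the list. The other 3 shFTO peaks of CREBBP were of 713 bp (score 833.29, at 19.5% of the locus), 52 bp (score 108.90, at 63.9%) and 279 bp (score 69.28, at 90.7%).

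Along the loci, 21 of 27 shCtrl and 16 of 31 shFTO peaks were centred beyond 66.7% of the length from the 5′ end. Beyond 90% lay 7 shCtrl and 11 shFTO peaks. Of the wide peaks, 3 of 6 in shCtrl cells and 6 of 11 in shFTO cells lay there. These counts rest on few peaks, and the locus includes introns, so they do not give a position within the mRNA. The matching shares over all genes with listed peaks were not counted, so these counts have no background beside them. Whether the placement is particular to these genes was therefore not tested.

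A peak that is listed in one condition alone was not necessarily uncalled in the other. The peak names carry a number that rose with position along every chromosome in both lists. Listed peaks were 5.80% (shCtrl) and 6.39% (shFTO) of the highest number. Numbers that are skipped between neighbouring listed peaks were read as peaks that were called but not listed, on either strand. Both lists are labelled mRNA, and whether the skipped peaks lie in mRNA or outside it was not tested. Around each of the 42 list-specific peaks of the 8 genes, the other list skipped at least 5 numbers between its own flanking peaks. For the 19 shCtrl-specific peaks the shFTO list skipped 5 to 51 numbers (median 11), and for the 23 shFTO-specific peaks the shCtrl list skipped 8 to 56 (median 40). In the whole lists this median was 24 for the specific peaks of either list. Peaks in the same gap share its value, and the KMT2C gap with 56 entered 7 times. The medians of 11 and 40 are therefore not a comparison of the conditions. Over all list-specific peaks that had a listed neighbour on both sides, 0.212% of the shCtrl-specific and 0.0968% of the shFTO-specific ones lay in a gap without a skipped number. For no gene of the 8, therefore, do the lists show that a list-specific peak was not called in the other condition.

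This held for the strongest contrasts. At the wide shFTO peak of CREBBP the shCtrl list skipped 31 numbers over 110.308 kb, and at the wide shCtrl peak of EP300 the shFTO list skipped 15 over 56.354 kb. All 7 shFTO peaks of KMT2C lay in a single shCtrl gap of 865.418 kb with 56 skipped numbers. At the peaks scored 3100 in shFTO cells, the shCtrl list skipped 40 numbers around that of KMT2A and 9 around that of KMT2B. Within a gene, listed peaks could also be sparse or dense: the 7 shFTO peaks of KMT2C came from 34 consecutive numbers, the 6 shCtrl peaks of EP300 from 10, the 5 shFTO peaks of EP300 from 27, and the 3 shCtrl peaks of CREBBP from 3. Whether the unlisted numbers lie at the same sites was not tested.

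**Figure D4:**
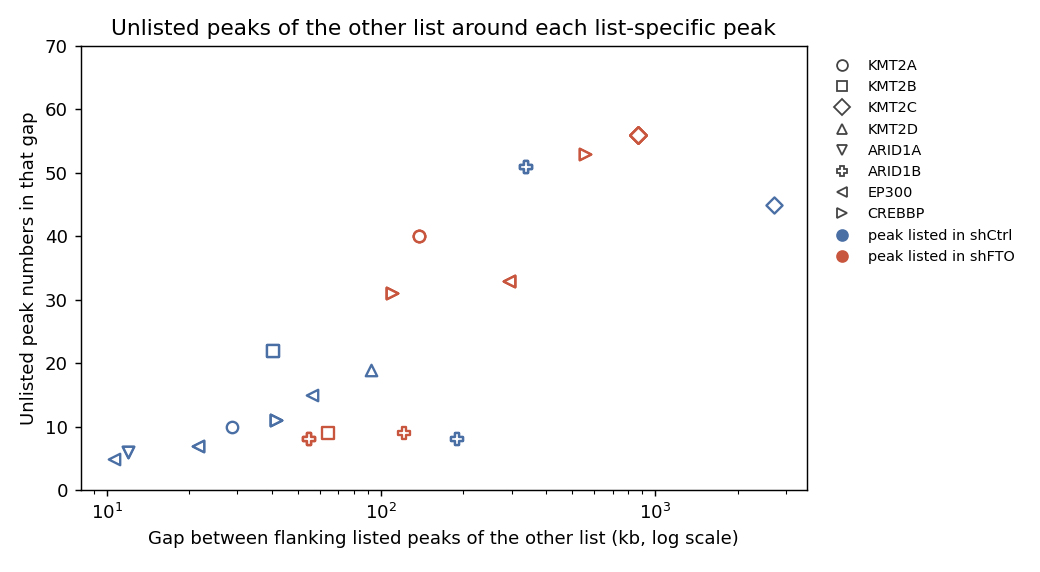
Number of peak numbers skipped by the other list (vertical axis) against the length of the gap between its flanking listed peaks in kb (log axis), for the 42 list-specific peaks of the 8 genes, with the gene as the symbol and the list of the peak as the colour. Peaks of 1 gene in the same gap coincide; every point lies at 5 or above, and the 7 shFTO peaks of KMT2C fall on 1 point at 56.

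The peaks of 16 other subunits of the same complexes were counted in the same way. This list held SETD1A, SETD1B, WDR5, RBBP5, MEN1, KDM6A, NCOA6 and PAXIP1, partners or relatives of the methyltransferases in the COMPASS and MLL complexes, and SMARCA4, SMARCB1, SMARCC1, SMARCC2, SMARCD1, SMARCE1, ARID2 and PBRM1 of SWI/SNF. It had 23 shCtrl peaks in 9 genes and 29 shFTO peaks in 13 genes, with median widths of 174 bp and 168 bp. Peaks of at least 1000 bp numbered 0 of 23 in shCtrl cells, against 9.69% of all shCtrl peaks. In shFTO cells they numbered 3 of 29 (10.3%), against 15.3% of all shFTO peaks. The 3 wide ones lay in ARID2 (2861 bp), a subunit of the PBAF form, SMARCD1 (1710 bp) and SMARCC2 (1192 bp). List-specific peaks numbered 19 of 23 (82.6%) in shCtrl and 25 of 29 (86.2%) in shFTO cells. Both shares lay near the 79.8% and 80.4% of the whole lists.

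The summed length of the 16 genes was 5310 bp in shCtrl and 10947 bp in shFTO cells, a ratio of 2.06. The 3 wide shFTO peaks held 5763 bp of this, and the peaks under 1000 bp alone gave 5310 bp and 5184 bp, a ratio of 0.976. Peaks in both lists were found in 8 of them, among which SMARCA4, the ATPase of the complex, had 5 shCtrl and 6 shFTO peaks and SMARCC1, a core scaffold subunit, 4 and 6. NCOA6, a subunit of the KMT2C and KMT2D complexes, had 3 and 2 peaks, of which 2 were shared. The other 5 were SETD1B (3 and 3 peaks), RBBP5 (3 and 1), SMARCD1 (1 and 1), ARID2 (2 and 1) and PBRM1 (1 and 3). MEN1 and SMARCB1 had no listed peak in either condition.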

How the data were processed

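MeRIP-seq of shCtrl and shFTO RWPE1 cells gave 1 IP and 1 input library per condition. The authors deposited 1 BED list of peaks per condition, with a score per peak whose lowest value was 50.03 (shCtrl) and 50.05 (shFTO). Peak starts and ends are other deposited columns. The submitters' processing notes name cutadapt 1.9.3, HISAT2 and hg19, and the peak names have the form that MACS writes. The caller's settings and the rule that selected the listed peaks are not given in the sources used here.

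Here, loci of the 8 genes (to 1 kb, hg19) were overlapped with the lists in Python 3.11.15 with pandas 2.3.3, and 95% Wilson intervals came from SciPy 1.17.1. Positions are 1-based. The genes and lists were chosen with earlier results of these data known. The loci of the 16 other subunits were entered from general knowledge. All 24 loci were on the RefSeq (GRCh38.p14) chromosome, and 23 were within 4 kb of its length; SETD1B was 13.5 kb shorter. Strand agreed for the 18 genes that had a RefSeq strand entry. Of 9 other RefSeq genes that overlap the 8 genes, 4 lie on the opposite strand and 5 had no strand entry. The overlap step was tested on simulated lists. Every peak of the 8 genes was described, singly or within a range, and of the 16 other subunits those with peaks in both lists or with the most peaks could be named, to which the genes with a wide peak and those without a peak were added after their values were seen. Alternatives were other overlap rules, score filters, merging and locus edges. With no hg19 genome used here, no sequence, exon or motif was read.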

Additional observations from a re-analysis of the deposited data

How the results depend on the processing

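The 58 peaks of the 8 genes and their assignment did not change when the peak midpoint had to lie inside the locus, when loci were widened by 1 kb, when peaks within 100 bp were merged, or when partners had to lie on the same strand. With a reciprocal overlap of at least 50%, 21 shCtrl and 25 shFTO peaks were list-specific, against 19 and 23. The filters on score use fewer peaks by construction. At or above the median score, and likewise among the 5000 highest-scoring peaks, 21 peaks remained in each list, of which 15 in each list were list-specific. The median width was then 417 bp in shCtrl and 892 bp in shFTO cells, and the ratio of summed length 1.94. Set against the whole other list, a choice made after seeing the data, 14 of the peaks that reach the median were list-specific in each list. Also chosen after seeing the data, leaving out KMT2C gave a ratio of 1.61, leaving out the peaks of at least 1000 bp gave 1.06, and a limit of 500 bp gave 9 wide shCtrl and 16 wide shFTO peaks.

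No paired analysis was possible because the design has 1 library pair for each condition, which also leaves no replicate to omit. With the depth unknown, the lists do not separate a missing partner from too few reads or from the way peaks were selected.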
